A study of Mus musculus with 15 samples.

Results

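The 9 genes described here encode proteins that move ions and water across the intestinal epithelium, and they were taken by name from a list (Slc9a3, Slc26a3, Slc26a6, Cftr, Slc12a2, Slc4a4, Scnn1a, Car4 and Aqp8), a rule that uses no measured value. They are 9 of the 17752 genes listed in at least 1 mouse, and 8 of them were among the 14386 genes expressed highly enough to be tested. RNA from the ileum, the last stretch of the small intestine, was sequenced from 15 female C57BL/6JOlaHsd mice (C57BL/6 in the labels) of 8 weeks, 5 per group. The groups were gavaged every 2 days over 10 days with water, with low PAC or with high PAC, each PAC fraction at 200 mg/kg in water, and all mice ate the same purified diet. PAC are proanthocyanidins, plant polymers of flavan-3-ol units, here from grape pomace and separated by polymer size. High PAC is named for its high molecular weight in the labels, and the study's methods give that fraction a medium mean degree of polymerization. The name follows the labels. The tissue was whole ileum, so fewer cells of a type and less RNA per cell cannot be told apart.

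The epithelium of the small intestine absorbs salt mainly by coupling a sodium-proton exchanger to chloride-bicarbonate exchangers in the apical membrane, the side that faces the lumen, and water follows. Carbonic anhydrases supply the protons and bicarbonate for this exchange. In the crypts, chloride enters cells from the blood side through a sodium-potassium-chloride cotransporter and leaves through the apical channel Cftr, which drives fluid into the lumen. Sodium channels and the water channel Aqp8 belong mainly to the colon.

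The upstream sequences of an absorptive exchanger of each kind and of the secretory channel are shown because these genes stand for the opposite directions of salt movement and because their promoters differ in base composition. Each run holds 240 bases on the plus strand of GRCm38.p6 and ends 10 bases before the gene's first RefSeq base. The positions are chr13:74121163-74121402 for Slc9a3, chr12:31437969-31438208 for Slc26a3 and chr6:18170437-18170676 for Cftr. None of the 3 windows overlaps a GENCODE exon. The Slc26a3 window is upstream of the RefSeq start and lies within the longer GENCODE span of the gene, between exons, because 1 GENCODE transcript starts further upstream. Capitals mark matches, on either strand, to the motifs named next.
Slc9a3: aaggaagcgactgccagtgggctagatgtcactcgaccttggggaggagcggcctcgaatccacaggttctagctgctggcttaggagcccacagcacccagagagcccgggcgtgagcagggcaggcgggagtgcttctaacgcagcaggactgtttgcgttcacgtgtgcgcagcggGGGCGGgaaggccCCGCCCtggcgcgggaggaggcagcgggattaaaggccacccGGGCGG
Slc26a3: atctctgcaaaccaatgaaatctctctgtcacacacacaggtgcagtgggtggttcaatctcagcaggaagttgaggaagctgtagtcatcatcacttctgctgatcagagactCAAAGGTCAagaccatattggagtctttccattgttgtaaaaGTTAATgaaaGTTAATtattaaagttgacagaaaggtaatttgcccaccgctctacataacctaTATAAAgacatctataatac
Cftr: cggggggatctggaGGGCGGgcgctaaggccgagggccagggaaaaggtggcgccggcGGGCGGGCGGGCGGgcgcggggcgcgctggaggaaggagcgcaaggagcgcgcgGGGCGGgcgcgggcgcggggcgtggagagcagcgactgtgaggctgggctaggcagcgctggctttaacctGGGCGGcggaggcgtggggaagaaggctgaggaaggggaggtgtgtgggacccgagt
The motifs searched were the GC box GGGCGG, the TATA box TATAAA, the core GTTAAT of the site of the factor HNF1, the forms CAAAGTCCA and CAAAGGTCA of the site of HNF4, and, for the site of GATA factors, AGATAA with the related form AGATAG, and TGATAA with the related form TGATAG, each on both strands. RefSeq promoters were given for 7 of the 9 genes. Slc9a3 held 3 GC boxes and Cftr 6 (some overlapping), and 31.3% of all 32851 promoter windows held at least 1. Slc26a3 held no GC box but 1 TATA box, 2 HNF1 cores and 1 HNF4 site, motifs present in 12.1%, 6.26% and 0.77% of all windows. No GATA form was present in the windows of these 7 genes, against 25.9% of all windows. G and C made up 67.1% of the Slc9a3 window, 75.8% of the Cftr window and 38.8% of the Slc26a3 window. A match here is a string of letters and was not tested as a binding site.

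Expected counts summed to between 15963086 and 17903886 per mouse. Ileal marker genes were high in all 15 mice, with Fabp6, the ileal bile acid binding protein, at 4196 to 10620 FPKM (mapped fragments of a gene, scaled for its transcript length and the library size). Pancreatic markers summed to at most 2.84 FPKM and 4 of those 5 genes averaged under 0.5 FPKM. The high PAC replicate 3 stood apart: its mean correlation with the other mice was 0.967 (0.973 to 0.983 for the rest), and the geometric mean of 7 villus enterocyte markers was 454 FPKM in it and 734 to 1075 FPKM elsewhere. B cell markers of the Peyer patch ranged from 5.50 to 214 FPKM in sum within a group, and smooth muscle markers were lowest in the water replicates 1 and 3 (302 and 261 FPKM in sum, against 552 to 1068 FPKM elsewhere). Differences from water without the high PAC replicate 3 are given beside those of the named genes.

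In the water mice the levels of these genes, per transcript length, ran from Car4 at 112 ± 23.3 FPKM (SD, n = 5) through Slc26a6 at 76.3 ± 9.08, Slc26a3 at 65.6 ± 2.37 and Slc12a2 at 55.3 ± 10.9 to Slc4a4 at 28.2 ± 1.91 and Cftr at 27.8 ± 5.41 FPKM. Scnn1a at 6.94 ± 1.03 and Slc9a3 at 5.41 ± 2.34 FPKM were lowest of the 8. In water, neighbours in this order overlapped between mice except at 2 steps, from Slc12a2 down to Slc4a4 and from Cftr down to Scnn1a, and at these the ranges were apart in both PAC groups too. The ranges of Scnn1a and Slc9a3 overlapped in water and were apart in low PAC and in high PAC, with Scnn1a higher in 5 of 5 mice of each, and those of Slc26a3 and Slc12a2 and of Slc4a4 and Cftr were apart in high PAC. The order of Slc26a3 and Slc12a2 was not the same in every group: Slc26a3 was above Slc12a2 in 4 of 5 water mice, in 1 of 5 low PAC mice and in 0 of 5 high PAC mice. In the same way Slc4a4 was above Cftr in 3 of 5 water mice, in 1 of 5 low PAC mice and in 0 of 5 high PAC mice.

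**Figure D1:**
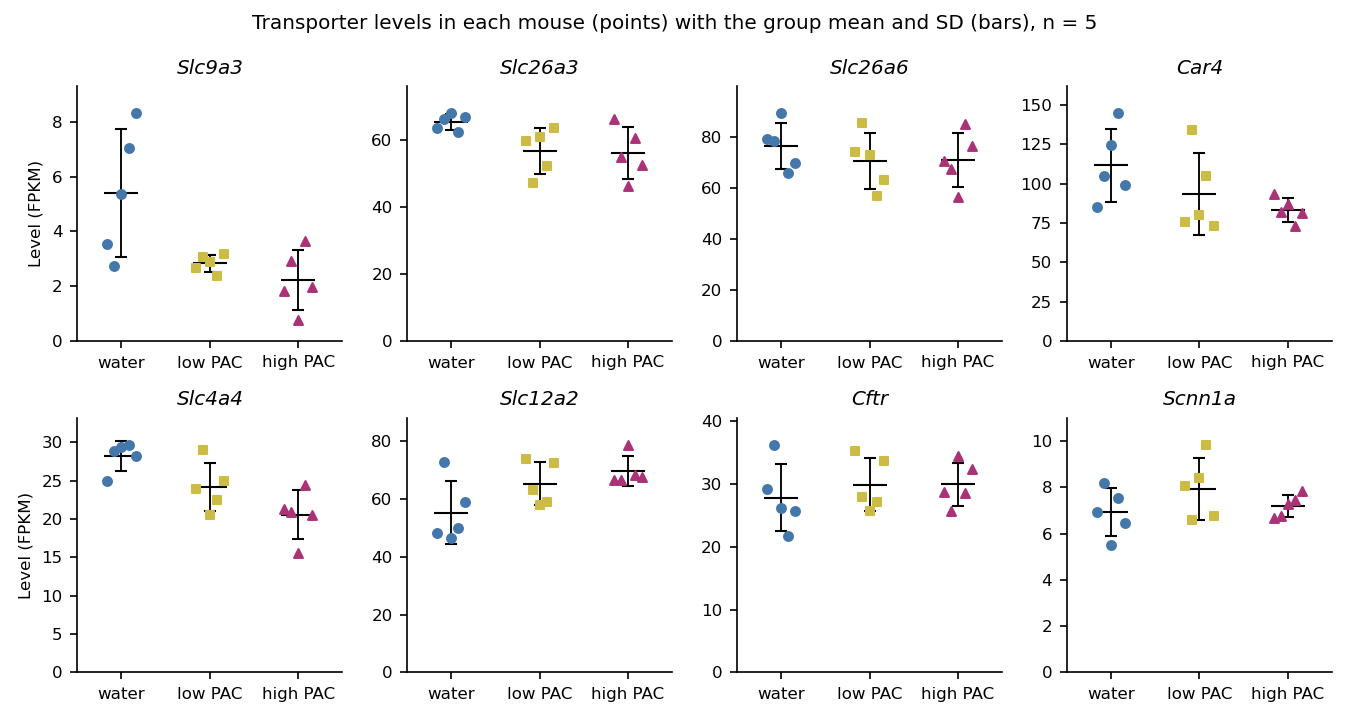
Level of each of the 8 detected transporter genes in FPKM (y axis, from 0) in the water, low PAC and high PAC groups (x axis). Points are mice, and bars give the mean and SD of 5 mice. The high PAC mice sit at 15.6 to 24.5 FPKM of Slc4a4, all below the lowest water mouse at 25.0, while the other panels overlap between groups.

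None of the 8 tested genes passed a Benjamini-Hochberg adjusted p under 0.05 in edgeR in any of the 3 comparisons. The background was low: 0.0% of all genes passed in low PAC against water, 0.0139% (2 genes) in high PAC against water and 0.0% in high PAC against low PAC. At an unadjusted p under 0.05 the 8 genes gave 3, 5 and 1, against 3.61%, 14.8% and 3.89% of all genes. The 3 in low PAC against water (Slc9a3, Slc26a3 and Slc4a4) were all lower, and the 5 in high PAC against water were the same 3 and Car4, lower, and Slc12a2, higher. Over all genes the high PAC calls at that threshold also leaned lower (1500 lower, 628 higher), a balance that turned with upper-quartile scaling (816 lower, 1505 higher), under which the 8 genes still gave 4 lower and 1 higher. The median log2 fold change of all 8 tested genes was -0.22 in low PAC against water and -0.26 in high PAC against water (-0.15 without the high PAC replicate 3), where the medians over all genes were -0.01 and 0.00. The water mice are shared by these comparisons, so the lower values on both sides are not independent. The same 4 genes were lower at that threshold without the high PAC replicate 3, while Slc12a2, at a log2 fold change of 0.23, was then past it no longer. Slc12a2 missed it in 9 of the 15 fits that leave out 1 mouse each, whereas Slc9a3, Slc26a3, Slc4a4 and Car4 stayed lower and past it in all 15. In high PAC against water DESeq2 gave an adjusted p for 6 of the 8, leaving out Slc9a3 and Scnn1a, and for 6577 of the 14386 genes, and it called 1 of those 6, Slc4a4. Over all genes it called 2, 167 and 0 in the 3 comparisons. The 2 genes called by edgeR were Slc28a2 and Slc23a4, both lower in high PAC than in water. They are named only because so few passed, after their values were seen.

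**Figure D2:**
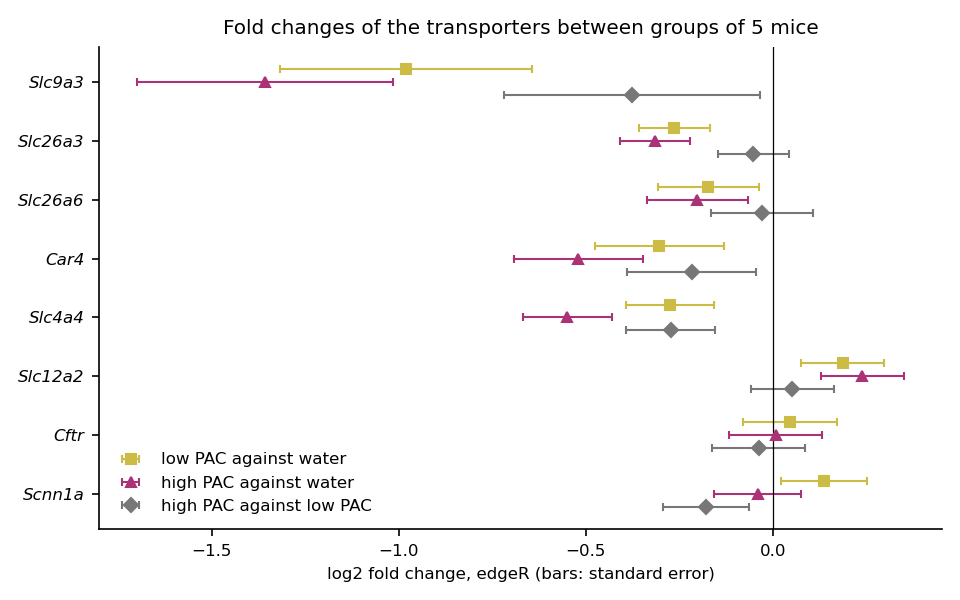
log2 fold change from edgeR (x axis) of the 8 tested transporter genes (y axis) in the 3 comparisons, with standard errors as bars and 5 mice per group. Slc9a3 lies farthest from 0, at -0.98 and -1.36 against water, with the widest bars, and the 3 points of Cftr lie within 0.05 of 0.

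Slc9a3 encodes NHE3, the apical sodium-proton exchanger of absorptive enterocytes (identifier 105243, GRCm38 chromosome 13, 74121457 to 74169442, plus strand). Its level in water replicates 1 to 5 was 3.55, 2.74, 5.38, 7.07 and 8.32 FPKM. In low PAC replicates 1 to 5 it was 2.65, 3.07, 2.89, 2.39 and 3.17 FPKM, and in high PAC replicates 1 to 5 it was 1.83, 2.91, 0.77, 3.67 and 1.97 FPKM. The water mice differed among themselves by 3.04-fold while the low PAC mice were close together (coefficients of variation of 43.2% and 11.2%), and the range of the water mice overlapped with that of each PAC group. The log2 fold change was -0.98 ± 0.34 (SE) in low PAC and -1.36 ± 0.34 in high PAC against water (edgeR adjusted p = 0.976 and 0.180). On the scale of log2(FPKM + 0.1), an exact permutation test (two-sided, 5 mice per group) gave a p of 0.0317 for low PAC and 0.0397 for high PAC, unadjusted for the 24 such tests made. Without the high PAC replicate 3 the exact p for high PAC was 0.0714 with a difference of -0.97 on that scale, against -1.29 with it.

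The spread of Slc9a3 among water mice ran beside that of Gata4, a factor of the proximal small intestine that is low in distal ileum. Gata4 was at 4.58, 1.69, 4.04, 12.5 and 12.7 FPKM in water replicates 1 to 5, so the mice highest in Slc9a3 (replicates 4 and 5) were also highest in Gata4 and lowest in Fabp6 (4307 and 4196 FPKM). Across groups Gata4 ranged from 1.69 to 12.7 FPKM in water, 0.48 to 6.23 in low PAC and 0.39 to 4.23 in high PAC. Of the 8 proximal markers, 7 averaged at least 0.5 FPKM, and the list summed to 300.2 to 629 FPKM in water, 88.7 to 498 in low PAC and 322 to 652 in high PAC. The 6 distal markers summed to 5239 to 8539, 7576 to 9098 and 7780 to 11860 FPKM. Gata4 and these lists were chosen with earlier results of the same mice known. Among the low PAC mice replicate 4 had the highest Gata4 (6.23 FPKM) and the lowest Slc9a3. Among the high PAC mice replicate 2 had the highest Gata4 (4.23 FPKM) and the second highest Slc9a3 (2.91 FPKM). The high PAC mouse highest in Slc9a3, replicate 4 (3.67 FPKM), had Gata4 at 0.72 FPKM. With a position score, proximal less distal markers, Slc9a3 had r = 0.97 in water, -0.14 in low PAC and 0.02 in high PAC. Over the 15 mice, with group means subtracted, r was 0.35 (permutation p = 0.172, adjusted p = 0.449). The part of position along the intestine in the result was not tested.

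**Figure D3:**
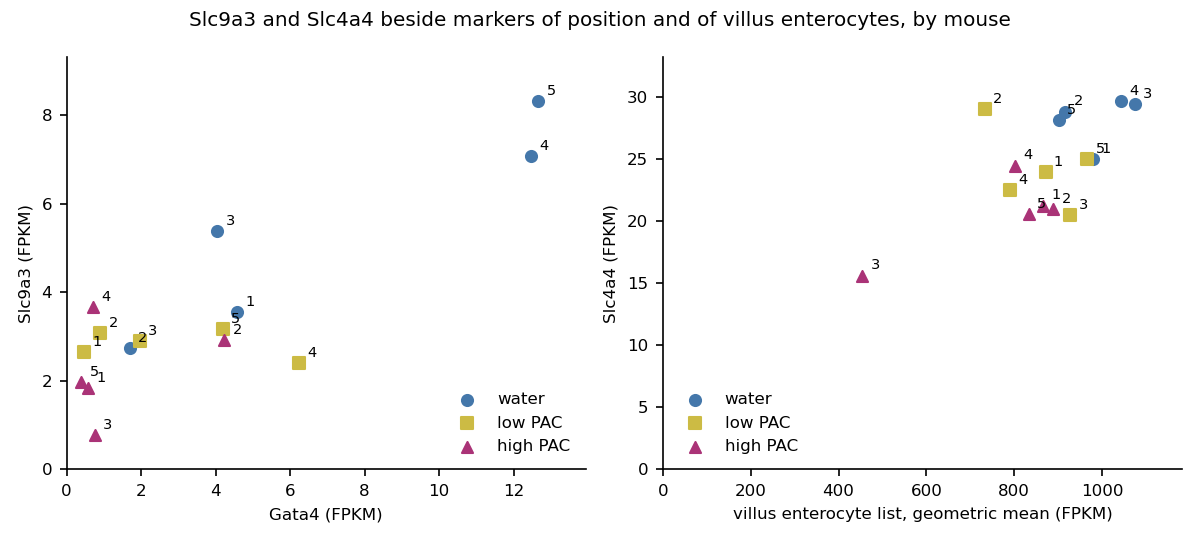
Left, Slc9a3 against Gata4 in each of 15 mice, and right, Slc4a4 against the geometric mean of 7 villus enterocyte markers, all in FPKM, with replicate numbers beside the points. Water replicates 4 and 5 stand at the upper right for Slc9a3 and Gata4, and the high PAC replicate 3 stands alone at 454 FPKM of the villus markers and 15.6 FPKM of Slc4a4.

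Slc26a3 encodes DRA, the apical chloride-bicarbonate exchanger that works with NHE3 (13487, chromosome 12, 31390871 to 31473917, plus strand). The water mice were close together at 63.6, 66.5, 68.1, 62.6 and 67.0 FPKM for replicates 1 to 5. The low PAC mice had 59.9, 47.4, 61.0, 52.4 and 63.8 FPKM, and the high PAC mice 66.6, 55.2, 46.3, 60.9 and 52.8 FPKM. In each PAC group 4 of 5 mice were below the lowest water mouse, and the spread was wider than in water (coefficients of variation of 3.61%, 11.9% and 13.7% for water, low PAC and high PAC). The log2 fold change against water was -0.26 ± 0.09 for low PAC and -0.31 ± 0.09 for high PAC, a level about 0.833 and 0.804 of that in water (edgeR adjusted p = 0.976 and 0.202). The two-sided exact permutation p was 0.0238 and 0.0397. The high PAC fold change was -0.21 without replicate 3 (edgeR adjusted p = 0.398).

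Slc26a6 encodes PAT1, the other apical anion exchanger, which also carries oxalate (171429, chromosome 9, 108853283 to 108913049, plus strand). It ranged from 65.8 to 89.1 FPKM in water (median 78.1), from 56.8 to 85.5 in low PAC (median 72.7) and from 56.2 to 84.7 in high PAC (median 70.5). The 3 groups overlapped, with 2 of 5 low PAC mice and 1 of 5 high PAC mice below the lowest water mouse. Against water its log2 fold change was -0.17 ± 0.14 for low PAC and -0.20 ± 0.14 for high PAC, with 95% intervals of -0.46 to 0.12 and -0.49 to 0.09 (edgeR adjusted p = 0.976 and 0.476). The high PAC value was -0.09 without replicate 3, and the low PAC value ran from -0.27 to -0.10 with 1 mouse left out.

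Car4 encodes a carbonic anhydrase anchored on the outer face of the apical membrane (12351, chromosome 11, 84957786 to 84966044, plus strand) and was the most abundant of these transcripts. It was at 85.0, 105, 124, 145 and 99.3 FPKM in water replicates 1 to 5, at 75.7, 134, 79.9, 105 and 73.1 FPKM in low PAC and at 93.5, 82.3, 86.8, 72.9 and 81.0 FPKM in high PAC. The high PAC mice lay in a narrow band at the lower edge of the water range, with 3 of 5 below every water mouse, while low PAC replicate 2 was high. The log2 fold change was -0.52 ± 0.17 in high PAC against water (edgeR adjusted p = 0.234, two-sided exact permutation p = 0.0238), and -0.50 without replicate 3 (edgeR adjusted p = 0.395). In low PAC it was -0.30 ± 0.17 (adjusted p = 0.976), and it was -0.49 without the low PAC replicate 2 and -0.19 without the water replicate 4.

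Slc4a4 encodes NBCe1, the sodium-bicarbonate cotransporter of the basolateral membrane that brings bicarbonate into the cell (54403, chromosome 5, 88886818 to 89239653, plus strand). The water mice had 25.0, 28.8, 29.4, 29.7 and 28.2 FPKM, and the low PAC mice 23.9, 29.0, 20.5, 22.5 and 25.0 FPKM. The high PAC mice had 21.2, 21.0, 15.6, 24.5 and 20.6 FPKM. All 5 high PAC mice were below all 5 water mice, and low PAC lay between, with 3 of 5 mice below the water range. Slc4a4 was the only gene of the 8 whose groups did not overlap in high PAC against water, where 4.64% of all tested genes did not overlap. None of the 8 was without overlap in low PAC against water (0.605% of all genes) or in high PAC against low PAC (0.737%). The level in high PAC was 0.683 of that in water, a log2 fold change of -0.55 ± 0.12 with a 95% interval of -0.80 to -0.30 (edgeR adjusted p = 0.133). DESeq2 gave -0.53 ± 0.12 with an adjusted p of 0.00590. The two-sided exact permutation p was 0.00794, the smallest that 5 against 5 mice allow. Without the high PAC replicate 3, the lowest mouse, the edgeR log2 fold change was -0.43 with an adjusted p of 0.193, and the groups still did not overlap.

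Slc12a2 encodes NKCC1, the basolateral cotransporter that loads crypt cells with chloride (20496, chromosome 18, 57878678 to 57946821, plus strand), and it was the only gene of the 8 with an unadjusted p under 0.05 in the upward direction. Water replicates 1 to 5 had 48.1, 72.8, 46.6, 50.03 and 59.0 FPKM, and low PAC replicates 74.1, 63.1, 57.9, 59.1 and 72.5 FPKM. The high PAC mice had 66.7, 66.6, 78.8, 68.4 and 67.7 FPKM. Water replicate 2 was as high as the treated mice and the other 4 water mice were below the whole high PAC range. The log2 fold change was 0.24 ± 0.11 in high PAC against water (edgeR adjusted p = 0.329, two-sided exact permutation p = 0.0397) and 0.19 ± 0.11 in low PAC (adjusted p = 0.976, exact p = 0.111), where it was 0.30 without the water replicate 2. On the scale of log2(FPKM + 0.1) the high PAC difference was 0.35, and 0.30 without the high PAC replicate 3, with an exact permutation p of 0.0794.

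Cftr, the cyclic AMP-activated chloride channel of crypt cells (12638, chromosome 6, 18170687 to 18322768, plus strand), ranged from 21.7 to 36.2 FPKM in water, 25.8 to 35.2 in low PAC and 25.7 to 34.4 in high PAC, with medians of 26.2, 27.9 and 28.6. The groups overlapped throughout. Cftr had a log2 fold change of 0.05 ± 0.12 in low PAC and 0.01 ± 0.12 in high PAC against water, with 95% intervals of -0.22 to 0.31 and -0.26 to 0.27 (edgeR adjusted p = 0.986 and 0.981). An antisense gene shares 129 exon bases with Cftr in GENCODE, and the strand setting of the counting is not given in the sources used here.

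Scnn1a encodes the alpha subunit of the epithelial sodium channel (20276, chromosome 6, 125320659 to 125344943, plus strand). It ranged from 5.51 to 8.21 FPKM in water, 6.60 to 9.84 in low PAC and 6.66 to 7.84 in high PAC. Its log2 fold change was 0.14 ± 0.12 in low PAC and -0.04 ± 0.12 in high PAC against water (edgeR adjusted p = 0.976 and 0.886). The high PAC value was -0.01 without replicate 3, as it was for Cftr, and the low PAC value ran from 0.05 to 0.20 with 1 mouse left out. The transcripts of the beta and gamma subunits, Scnn1b and Scnn1g, were missing from the files of 9 and 11 of 15 mice and reached 0.06 FPKM at most in the others, so the alpha subunit was measured almost without its partners.

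Aqp8, the water channel of colonic surface cells (11833, chromosome 7, 123462291 to 123468004, plus strand), was missing from the files of 14 of 15 mice, which list no gene at 0, and its value there was set to 0. The high PAC replicate 3 had 1 count, 0.04 FPKM. No fold change is given for it.

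The PAC fractions were given at the same dose, and high PAC was compared with low PAC directly for the 8 genes, which made 8 pairs with p-values adjusted over all genes tested. No gene passed (edgeR adjusted p = 0.896 to 0.977). Slc4a4 was lower in high PAC than in low PAC by a log2 fold change of -0.27 ± 0.12, with a 95% interval of -0.52 to -0.02 (unadjusted p = 0.0344 in edgeR, two-sided exact permutation p = 0.119). For Slc9a3 the difference was -0.38 with an interval of -1.10 to 0.35, and for Car4 -0.22 with an interval of -0.58 to 0.15. With 1 mouse left out, that of Slc9a3 was -0.15 without the high PAC replicate 3 and -0.64 without the high PAC replicate 4, and that of Car4 was -0.03 without the low PAC replicate 2. The interval of Slc26a3 ran from -0.25 to 0.15, that of Slc26a6 from -0.32 to 0.26 and that of Slc12a2 from -0.18 to 0.29. For Cftr it ran from -0.30 to 0.23 and for Scnn1a from -0.42 to 0.07. A difference between the fractions as large as the -0.27 of Slc4a4 lies within the intervals of Slc9a3, Car4, Slc26a6, Cftr and Scnn1a. Without the high PAC replicate 3 the difference of Slc4a4 was -0.17 and none of the 8 genes had an unadjusted p under 0.05.

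Slc9a3, Slc26a3 and Car4 are known as genes of absorptive villus cells. The villus enterocyte markers Alpi, Fabp2, Krt20, Sis, Anpep, Mep1a and Slc5a1, all 7 of them detected, summed to 9946 to 12730 FPKM in water (median 11200), 7845 to 11500 in low PAC (median 9818) and 5820 to 10610 in high PAC (median 9544). The 8 general epithelial markers were steadier, at 6040 to 7232, 6078 to 6874 and 6139 to 6702 FPKM in sum. Goblet cell markers summed to 4727 to 6375, 5503 to 6623 and 5358 to 8543 FPKM, and crypt base and Paneth cell markers to 8839 to 19590, 13530 to 19270 and 16560 to 24530 FPKM.

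Set against the epithelial markers of the same mouse, Slc4a4 was still lower in high PAC than in water (difference of -0.41 in mean log2, two-sided exact permutation p = 0.0238), and Slc9a3 too (-1.23, exact p = 0.0397). The differences of Slc26a3, Car4 and Slc12a2 were -0.17, -0.34 and 0.41 on that scale, against -0.23, -0.40 and 0.35 on log2(FPKM + 0.1), with a p of 0.159, 0.0794 and 0.0635 in the same exact test. Set against the villus enterocyte markers, a scale chosen after seeing the data, the differences of Slc4a4 and Car4 were -0.07 and -0.01 (exact p = 0.532 and 0.968). That of Slc26a3 was 0.16 in the opposite direction (exact p = 0.262), and that of Slc9a3 was -0.90, against -1.29 on log2(FPKM + 0.1) (exact p = 0.0556). On that scale the difference of Slc12a2 was 0.74 (exact p = 0.0238) and that of Scnn1a 0.45 (exact p = 0.0476). Those of Cftr and Slc26a6 were 0.51 and 0.28 (exact p = 0.103 and 0.119). Part of this shift came with the high PAC replicate 3, the mouse lowest in villus markers. Without it the differences against the villus markers were -0.16 for Slc4a4, -0.21 for Car4, 0.05 for Slc26a3 and -0.76 for Slc9a3. Those of Slc12a2, Scnn1a, Cftr and Slc26a6 were then 0.52, 0.27, 0.28 and 0.18. The exact p of these genes lay between 0.0556 and 0.603. In low PAC against water the epithelial scale gave -0.77 for Slc9a3 and -0.18 for Slc26a3 (exact permutation p = 0.0635 and 0.183), and the villus scale -0.60 and -0.01 (exact p = 0.0873 and 0.841), where log2(FPKM + 0.1) gave -0.80 and -0.21. For Slc4a4 the epithelial and villus scales gave -0.20 and -0.03 (exact permutation p = 0.0952 and 0.881), against -0.23 on log2(FPKM + 0.1). The part of cell composition in these results was not tested.

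**Figure D4:**
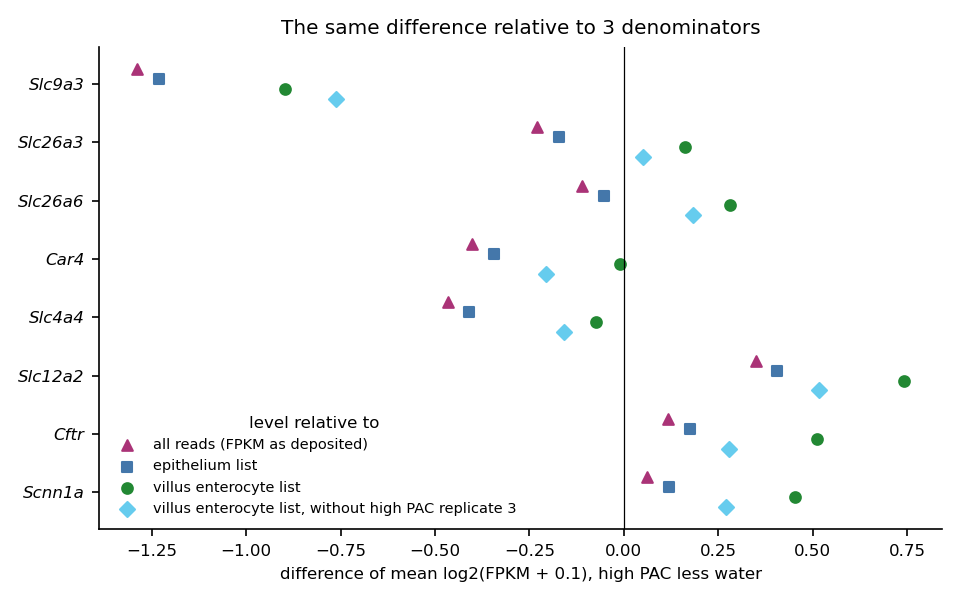
Difference between high PAC and water in mean log2(FPKM + 0.1) (x axis) for the 8 genes (y axis), on 4 scales: as deposited, relative to the epithelium markers, and relative to the villus enterocyte markers with and without the high PAC replicate 3. Slc4a4 moves from -0.47 as deposited to -0.07 relative to the villus markers, and Slc9a3 stays below 0 on all 4 scales.

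Across the 15 mice, with group means subtracted, none of 28 correlations between pairs of the 8 genes and none of 24 with the epithelium, villus and position scores passed an adjusted p under 0.05. The largest pair value was that of Slc12a2 and Cftr, the entry and exit steps of chloride secretion (r = 0.76, rho = 0.67, permutation p = 0.00715 and 0.0156, adjusted p = 0.135 and 0.354). It was 0.49 when the 2 mice most distant from the median Slc12a2 were left out. Slc9a3 and Slc4a4 had r = 0.66 and rho = 0.60 (permutation p = 0.0146 and 0.0253, adjusted 0.136 and 0.354), and r was 0.47 without the 2 farthest mice and 0.38 without the high PAC replicate 3. Cftr and Slc9a3 ran in opposite directions (r = -0.65, rho = -0.56, permutation p = 0.00965 and 0.0407, adjusted 0.135 and 0.380). For this pair r was -0.57 without the 2 mice farthest in Cftr and -0.62 without the high PAC replicate 3. By group it was -0.87 in water, 0.15 in low PAC and -0.79 in high PAC. Slc26a3 had r = 0.72 and rho = 0.60 with the villus enterocyte score (permutation p = 0.00973 and 0.0325, adjusted 0.183 and 0.260), and r was 0.34 without the 2 farthest mice, low PAC replicate 2 and high PAC replicate 3. Slc4a4 had r = 0.47 with the villus enterocyte score (permutation p = 0.232, adjusted 0.506). For Slc4a4 r was 0.02 without those 2 mice and -0.37 without the high PAC replicate 3 alone. Slc26a6 had r = -0.66 and rho = -0.66 with the position score, proximal less distal markers (permutation p = 0.0153 and 0.0144, adjusted 0.183 and 0.260). Without the 2 mice farthest on the position score r was -0.52.

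Among 12156 other genes with a mean of at least 1 FPKM, those most alike to each of the 8 over the 15 mice (Pearson r of log2 library-scaled counts with group means subtracted, given as a description) were found. For Slc9a3 they were Efcab14, Npc1l1 and Npc1 (r = 0.87, 0.84 and 0.83). Npc1l1 is the apical cholesterol transporter of enterocytes. For Slc4a4 they were Nsf, Usp6nl and Pfkfb2 (0.93 each), and for Slc26a6 Nipal1, Prss30 and Crybg1 (0.95, 0.95 and 0.94). For Slc26a3 they were Rab11fip2, Ubr1 and Gtf3c3 (0.90, 0.88 and 0.86), and for Car4 Mvk, Unc5cl and Ndrg3 (0.88, 0.83 and 0.79). Slc12a2 was most like Armcx3, Ipo7 and Nadk2 (0.87, 0.85 and 0.84), Cftr most like Slc25a17, Ccdc28a and Slc35a1 (0.88, 0.87 and 0.86), and Scnn1a most like Cln6, Itfg2 and Arhgef10 (0.86, 0.86 and 0.84).

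Of 78 other genes of ion and fluid transport in 9 lists, 68 were tested, and none passed an adjusted p under 0.05 in any comparison in edgeR. DESeq2 called 3 of them, Clcn2, Clca4a and Clca4b, lower in high PAC than in water, and 0 in the other comparisons. At an unadjusted p under 0.05, 3 were higher and 14 lower in high PAC against water (25.0% of the 68, beside 14.8% of all genes, of which 628 were higher and 1500 lower), and 1 was higher and 1 lower in each of the other comparisons (2.94%, beside 3.61% and 3.89% of all genes). With upper-quartile scaling the 68 gave 7 higher and 8 lower, and all genes 1505 higher and 816 lower. With the high PAC replicate 3 left out, 5 list genes were higher and 5 lower at that threshold, beside 759 higher and 813 lower of all genes. All 14 of the lower genes still had a log2 fold change under 0 then, 5 of them past the threshold, and their median was -0.20, against -0.34 with all mice. The median log2 fold change of the 68 was -0.08 (-0.03 without that mouse) in high PAC against water and -0.05 in low PAC against water. The 10 genes not tested had at most 0.15 FPKM in any mouse.

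Genes of chloride and potassium secretion gave 7 of the 17, 1 higher and 6 lower of 12 tested (1 and 4 without the high PAC replicate 3, 2 and 5 with upper-quartile scaling). Clca4a, a member of the calcium-activated chloride channel regulator family, was at 346 ± 64.1 FPKM in water, 270 ± 60.7 in low PAC and 196 ± 68.4 in high PAC (n = 5 each), a log2 fold change of -0.91 ± 0.23 in high PAC (edgeR adjusted p = 0.180), and -0.72 without the high PAC replicate 3. Clcn2, a chloride channel, was at 29.9 ± 1.99, 26.4 ± 1.17 and 25.1 ± 3.24 FPKM, a log2 fold change of -0.35 ± 0.09 in high PAC (adjusted p = 0.183), and -0.23 without that mouse. The gene higher was Kcne3, the partner of the basolateral potassium channel Kcnq1 that supports chloride secretion, with 38.9 ± 5.16 FPKM in water and 53.5 ± 12.2 in high PAC (log2 fold change 0.34, and 0.24 without that mouse). It is named outside the rule for naming genes, after its values were seen.

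Among regulators of sodium-proton exchange, 3 of 9 tested genes had an unadjusted p under 0.05 in high PAC against water, and all 3 were lower. Slc9a3r1, the scaffold NHERF1 that holds NHE3 at the apical membrane, was at 491 ± 57.3 FPKM in water and 415 ± 67.8 in high PAC (log2 fold change -0.34 ± 0.14, edgeR adjusted p = 0.280). Chp2, a binding protein of these exchangers, was at 86.7 ± 6.32 and 72.3 ± 18.4 FPKM (-0.35 ± 0.15, adjusted p = 0.301). Without the high PAC replicate 3 the fold changes of Slc9a3r1 and Chp2 were -0.20 and -0.17, and 0 of the 9 genes passed that threshold (1 with upper-quartile scaling). Slc9a2, another apical sodium-proton exchanger, was more abundant than Slc9a3 in these mice, at 46.3 ± 7.68 FPKM in water, 46.2 ± 6.69 in low PAC and 40.7 ± 7.96 in high PAC, and was not among the 3. It too is named outside that rule.

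In the sodium channel list, Hsd11b2, the enzyme that shields the mineralocorticoid receptor from glucocorticoids, was at 8.84 ± 2.67 FPKM in water, 12.5 ± 1.70 in low PAC and 15.1 ± 3.26 in high PAC. Its log2 fold change was 0.67 ± 0.20 in high PAC (edgeR adjusted p = 0.196) and 0.44 ± 0.20 in low PAC (adjusted p = 0.976). Nr3c2, the mineralocorticoid receptor, was at 12.2 ± 1.99 FPKM in water and 10.3 ± 2.38 in high PAC (-0.34 ± 0.16, adjusted p = 0.333). Atp1b3, a beta subunit of the sodium-potassium pump, was at 29.6 ± 1.49 FPKM in water and 38.0 ± 7.17 in high PAC (0.26 ± 0.09, adjusted p = 0.252). With the high PAC replicate 3 left out these 3 fold changes were 0.62 for Hsd11b2, -0.17 for Nr3c2 and 0.19 for Atp1b3, and Nr3c2 no longer had an unadjusted p under 0.05 (0.169 in edgeR), nor did it with upper-quartile scaling.

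Of 8 carbonic anhydrases tested beside Car4, Car13, a cytosolic form, was the only gene with an unadjusted p under 0.05, with 60.7 ± 10.2 FPKM in water, 51.1 ± 16.5 in low PAC and 43.2 ± 9.72 in high PAC (-0.58 ± 0.20 in high PAC, edgeR adjusted p = 0.237, and -0.51 without the high PAC replicate 3). The median log2 fold change of these 8 was above 0, at 0.29. Car12, at 0.49 with all mice, was past that threshold and higher without the high PAC replicate 3 (0.63, edgeR unadjusted p = 0.0222) and with upper-quartile scaling. It is named outside the rule for naming genes, after its values were seen. Among guanylate cyclase C and cyclic AMP signals, Vipr1, the receptor of vasoactive intestinal peptide, and Adcy6, an adenylate cyclase, were the 2 of 8 tested with an unadjusted p under 0.05 in high PAC against water (-0.32 ± 0.12 and -0.23 ± 0.10, edgeR adjusted p = 0.272 and 0.312), and stood at -0.21 and -0.11 without the high PAC replicate 3, where neither was past that threshold (edgeR unadjusted p = 0.0986 and 0.145), nor with upper-quartile scaling. Cnnm4, a magnesium transporter of the basolateral membrane, was the only gene of its 8 (-0.29 ± 0.11, adjusted p = 0.266), at -0.19 without that mouse (unadjusted p = 0.0601 in edgeR). None of 6 aquaporins and none of 7 other genes of the Slc26 and Slc4 families had an unadjusted p under 0.05 in edgeR in any of the 3 comparisons.

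**Figure D5:**
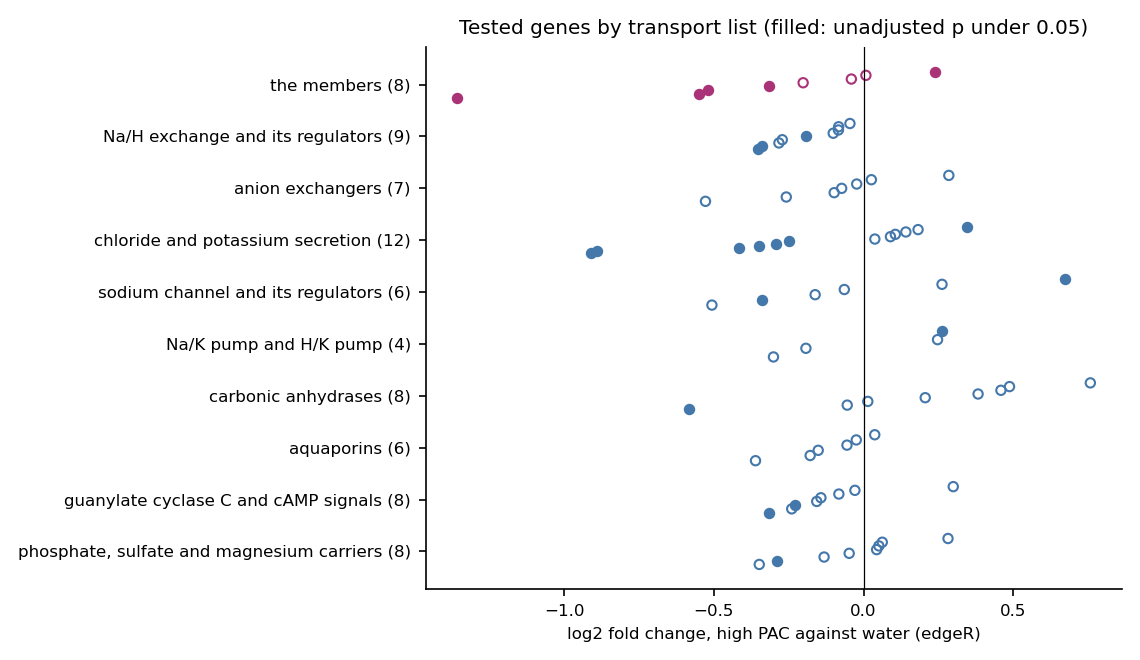
log2 fold change in high PAC against water from edgeR (x axis) for the 8 tested transporter genes (top row) and the 68 tested genes of 9 transport lists (other rows, number tested in brackets). Filled points had an unadjusted p under 0.05, and no point passed the adjusted threshold. Filled points lie mostly left of 0, 14 against 3 in the lists, beside 1500 against 628 over all genes. In the lists this was 5 against 5 without the high PAC replicate 3 and 8 against 7 with upper-quartile scaling, which gave 816 against 1505 over all genes.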

How the data were processed

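The authors sequenced ileal RNA as paired reads on a BGISEQ-500, cleaned them with SOAPnuke and, per the paper's methods, mapped them to mm10 with Bowtie2. The submitters' processing notes name HISAT and DESeq2 instead. The authors deposited, for each mouse and gene, an expected count (estimated fragments, not normalized) and an FPKM, which they scaled by gene length and mapped fragments. Genes missing from a mouse were set to 0.

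After rounding, the expected counts entered edgeR 4.0.16 in R 4.3.3 (TMM, quasi-likelihood, filterByExpr) in 1 model of 15 mice, with Benjamini-Hochberg adjustment over 14386 genes and a threshold of 0.05. Standard errors came from the test statistic, and 95% intervals used 15.75 degrees of freedom. Single genes were compared on log2(FPKM + 0.1) by an exact permutation test, two-sided, over all 252 splits of 10 mice (126 of 9). This pseudocount understates changes of low genes. Correlations used 100000 draws of mice within groups. Aqp8 was left out of these, leaving 28 pairs and 24 relations. Marker scores averaged log2(FPKM + 0.1) over listed genes with a mean of at least 0.5 FPKM. The edgeR script was tested on simulated data. DESeq2 1.42.0 was an alternative, as were other normalizations, no filter, a replicate block and leaving out each mouse.

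The members and lists were chosen with earlier results of these data known. All members were described. List genes were named where the adjusted p was under 0.05 or, with none, for the 2 smallest unadjusted p-values under 0.05 in any comparison. Libraries held at least 15963086 expected counts, but Slc9a3 had 32 to 351 and Scnn1a 331 to 540 per mouse. Counting error is therefore larger relative to the level of these 2 genes than for the more abundant members. The labels give 8 weeks of age and the methods 6 weeks on arrival, before 1 week of acclimatization. Positions are from GENCODE vM21 (GRCm38) and promoters from RefSeq (GRCm38.p6).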

Additional observations from a re-analysis of the deposited data

Results flagged for a closer look

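Of 24 groups of 5 mice (the 8 tested genes in 3 groups), 1 held a mouse whose gap to its nearest neighbour, divided by the range of its group, exceeded Dixon's 95% limit for 5 samples. Chance gives about 1 in 20 such groups. Slc12a2 was at 78.8 FPKM in the high PAC replicate 3, above 66.6 to 68.4 FPKM in the other 4 high PAC mice. Aqp8 also passed that limit, at 0.04 FPKM from 1 count in the same mouse, but it was missing from the files of the other 4 high PAC mice and set to 0 there, so that any count would have passed and the limit tests nothing.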

How the results depend on the processing

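The numbers of genes called were 0, 2 and 0 (low PAC against water, high PAC against water, high PAC against low PAC). They moved by more than 1.5 times with DESeq2 (2 and 167 in the first and the second) and with only the 2 groups compared (4 in the second), and leaving out each mouse gave 0 to 1 and 2 to 11 calls in them. Without the high PAC replicate 2 the second was 11, without the water replicate 2 it was 4, and without the low PAC replicate 2 the first was 1. Members called stayed at 0 in all alternatives but DESeq2, which called 1, Slc4a4. In high PAC against water DESeq2 gave no adjusted p for Slc9a3 and Scnn1a. Upper-quartile scaling moved the unadjusted calls in high PAC against water from 628 higher and 1500 lower to 1505 and 816, and the log2 fold change of Scnn1a to 0.020 in it. Members with an unadjusted p under 0.05 numbered 4 to 5 there when each mouse was left out. Relative to the villus enterocyte markers, the FPKM difference turned for Slc26a6 (0.077 in low PAC and 0.28 in high PAC against water), Slc26a3 (0.16 in high PAC against water) and, in high PAC against low PAC, for Car4 (0.061), Slc26a3 (0.18) and Scnn1a (0.065). Relative to the epithelium markers that of Slc26a3 was 0.0071 in high PAC against low PAC. With each mouse left out, log2 fold changes crossed 0 for Cftr (-0.031 to 0.15 in low PAC and -0.069 to 0.11 in high PAC against water, -0.087 to 0.018 in high PAC against low PAC), Scnn1a (-0.11 to 0.021 in high PAC against water), and in high PAC against low PAC for Slc26a6 (-0.11 to 0.068) and Slc26a3 (-0.11 to 0.027). Without the high PAC replicate 3, FPKM differences in high PAC against low PAC were 0.051 for Slc26a3 and -0.047 for Cftr, and relative to the villus markers 0.063 and -0.036, with 0.051 for Slc26a3 and 0.18 for Slc26a6 in high PAC against water. The causes were not tested.

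Replicate numbers are shared between groups. Same-numbered mice had r from -0.27 to 0.39, -0.22 to 0.45 and -0.31 to 0.065 in the 3 comparisons. The mean r of same-numbered mice was 0.12, 0.15 and -0.12, against -0.03, -0.04 and 0.03 for other pairs. In these comparisons 2, 1 and 0 mice correlated best with their own number. The study's methods name no pairing, and the numbers were taken as names. With a replicate block 0, 2 and 0 genes were called and no member.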
